A study of Mus musculus with 8 samples.

Results

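The 33 rows described here are the Hox genes of a mouse pancreatic alpha cell line, chosen by symbol alone as every probe set whose platform gene symbol was a Hox gene of the Hoxa, Hoxb, Hoxc or Hoxd cluster. They are 33 of 22142 tested probe sets, 1 for each of 33 genes, of the 39 Hox genes in the RefSeq gene table. The other 6 had no named row and were not analysed here. The cells were alphaTC1.9, a cultured line derived from a mouse glucagon-producing tumour, grown in 16 mM glucose without further treatment. The 4 control arrays carried RNA of control cells, and the 4 IDE-KD arrays carried RNA of cells in which a small interfering RNA targeted Ide, the gene of insulin-degrading enzyme, a protease that cleaves insulin and other small peptides. The labels call the replicates biological. The sources used here do not say how they were separated, whether control cells received a non-targeting RNA, or when the cells were harvested, and p-values here reflect only how these samples vary. Both groups were this 1 line, although the tissue label reads pancreatic mouse tissue.

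Hox genes encode homeodomain transcription factors that give cells along the head-to-tail axis of the embryo their positional identity. They lie in 4 clusters, and in the embryo the order of genes along a cluster matches the order in which they are switched on and the body level at which they act, with low-numbered paralogue groups anterior and high-numbered groups posterior. Polycomb complexes keep the clusters silent outside their domains, trithorax (MLL) complexes keep them active within them, retinoic acid switches on their anterior genes, and the proteins act on DNA together with PBX and MEIS partners. The pancreas forms from the foregut endoderm, and its best-known homeobox gene is a relative from outside the clusters, the ParaHox gene Pdx1.

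The RefSeq promoter table (GRCm38.p6) held a window of 300 bases, from 250 before to 50 after a transcript start, for 17 of the 33 genes (51.5%). With fewer than 80% matched, a statement on the promoters of the whole set is void, and single windows are described. Printed first are the windows of Hoxb1 and Hoxd11, the 2 genes whose control and IDE-KD arrays did not overlap, and of Hoxd8, the brightest Hox row that had a window. They show how differently these starts are built. Capitals mark CpG dinucleotides, and each window is written 5′ to 3′ on the plus strand.
Hoxb1, chr11:96365508-96365807: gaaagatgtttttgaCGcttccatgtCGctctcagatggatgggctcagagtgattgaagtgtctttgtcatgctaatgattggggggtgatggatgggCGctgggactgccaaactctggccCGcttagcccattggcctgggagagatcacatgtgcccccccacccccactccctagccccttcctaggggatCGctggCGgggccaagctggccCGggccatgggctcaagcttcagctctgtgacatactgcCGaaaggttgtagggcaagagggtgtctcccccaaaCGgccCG
Hoxd11 first start, chr2:74679308-74679607: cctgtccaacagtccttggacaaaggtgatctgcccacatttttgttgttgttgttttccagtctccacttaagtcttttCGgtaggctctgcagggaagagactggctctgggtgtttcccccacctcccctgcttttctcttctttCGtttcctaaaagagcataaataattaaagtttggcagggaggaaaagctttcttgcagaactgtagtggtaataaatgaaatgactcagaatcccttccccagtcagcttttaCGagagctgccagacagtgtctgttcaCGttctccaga
Hoxd11 second start, chr2:74682073-74682372: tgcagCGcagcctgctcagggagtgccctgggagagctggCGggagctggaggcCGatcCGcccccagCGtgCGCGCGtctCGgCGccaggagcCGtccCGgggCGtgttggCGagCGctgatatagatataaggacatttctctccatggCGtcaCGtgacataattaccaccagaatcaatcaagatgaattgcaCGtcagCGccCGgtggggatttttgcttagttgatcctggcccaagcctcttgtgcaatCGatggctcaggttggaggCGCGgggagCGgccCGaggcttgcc
Hoxd8, chr2:74704365-74704664: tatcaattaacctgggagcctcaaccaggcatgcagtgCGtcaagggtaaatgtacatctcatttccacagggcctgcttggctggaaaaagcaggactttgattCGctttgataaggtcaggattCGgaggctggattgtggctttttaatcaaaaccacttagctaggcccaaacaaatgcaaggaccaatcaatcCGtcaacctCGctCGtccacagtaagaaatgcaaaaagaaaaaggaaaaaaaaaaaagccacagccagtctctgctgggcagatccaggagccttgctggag
The Hoxb1 window held 10 CpG, the Hoxd8 window 6, and the Hoxd11 windows 4 at the first start and 25 at the second. The median over 32851 windows of the table was 7, and 81.6% of all windows held fewer CpG than the second Hoxd11 window. Hoxb1 is known for binding of HOX proteins with PBX to its own promoter, so the windows were searched on both strands for TGATNNAT, the bipartite HOX-PBX letters. In Hoxb1 the match TGATGGAT began 162 bases before the start on the plus strand, and in the second Hoxd11 window TGATTGAT lay on the minus strand with its leftmost base 73 bases before the start. Among the Hox windows not printed, those of Hoxa2 and Hoxb8 also held a match, and in both genes the control and IDE-KD arrays overlapped. Of all windows, 8.85% held a match, so a match describes letters and not a bound site.

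The deposited values were log2 expression values of Clariom S arrays, here called signal. Correlations over the tested rows were between 0.984 and 0.993 for arrays of 1 group and between 0.984 and 0.991 across groups. Ide (TC1900001454.mm.2), the check of the labels, read 8.62 ± 0.10 (SD, n = 4) on control arrays and 8.01 ± 0.11 (SD, n = 4) after knockdown, without overlap, at an adjusted limma p of 1.00. Among markers, Gcg, the glucagon precursor gene, had a mean signal of 12.06 over the 8 arrays, and 5 of 8 measured alpha cell and 6 of 6 pan-endocrine markers stood above the 95th percentile of the intron control rows. None of the 7 fibroblast and stellate cell markers did (range 2.55 to 5.87), nor any of 7 exocrine, immune and endothelial markers (2.67 to 5.30) or 8 markers of other islet cells (3.40 to 6.64).

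No Hox gene stood above the upper range of the array's control rows in these alpha cells. Of 33 rows, 0 had a mean signal over the 8 arrays above 6.87, the 95th percentile of the 5222 intron control rows, taken as a mark of low signal. Of all tested rows 26.1% did. The intron rows themselves ran from 1.49 to 12.32, so a signal below this mark does not show that a gene was silent. The alpha cell markers Irx1 (6.37), Ttr (5.97) and Tm4sf4 (5.13) also lay below it. At the 90th percentile of the intron rows, and at the 95th percentile of the background rows described further on, the count was also 0 of 33, against 34.8% and 33.9% of all tested rows. In RNA of whole cultures, fewer expressing cells and less RNA per cell cannot be told apart. The Hox rows ran from 2.21 (Hoxa3) to 5.34 (Hoxc9), with a median of 3.57, while the median over all tested rows was 5.12. On no single array did any Hox row exceed that array's own 95th percentile of intron rows, which lay between 6.84 and 7.03.

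Some members were above lower marks, each of them a median of control rows. Passing such a median does not show that a gene was expressed. The brightest Hox row, Hoxc9, was above 74.7% of the intron rows. The array control rows pooled for the next mark include 1324 exon control rows. The median of all 6923 array control rows was 4.52, and 7 Hox rows (21.2%) were above it, against 57.0% of all tested rows: Hoxc9, Hoxb2, Hoxa4, Hoxb7, Hoxd8, Hoxb8 and Hoxb3. The median intron row was 4.16, and 10 Hox rows (30.3%) were above it, against 61.4% of all tested rows, with Hoxc13, Hoxb1 and Hoxa13 added to the 7. Counted array by array, only Hoxc9 and Hoxb2 exceeded the median control row of that same array on all 8 arrays. Hoxb7 and Hoxd8 did so on 7 arrays, Hoxa4 and Hoxb8 on 6, and Hoxb3 and Hoxc13 on 3. The array also carries 23 background rows graded by a GC number in their names, and their mean signals ran from 1.64 to 6.44. Of these, 6 read higher than the brightest Hox row, and 0 Hox rows exceeded the highest. The sources used here do not give the GC content of the Hox probes. Signals of different probe sets are therefore not amounts of RNA that can be set against each other, and the order of the rows is an order of signal only.

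**Figure D1:**
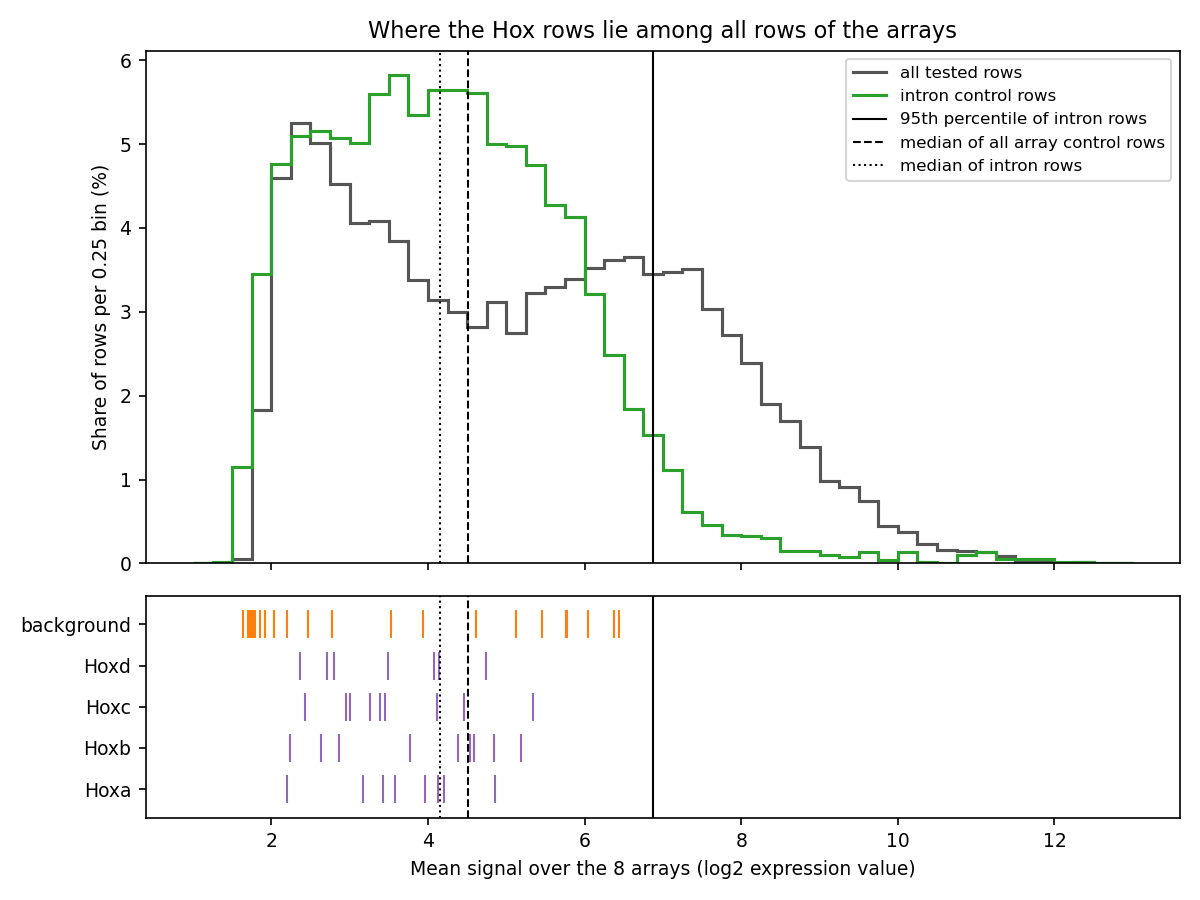
Share of all tested rows and of intron control rows per 0.25 of mean signal (log2 expression value, top), and the mean signal of each Hox row by cluster and of each of 23 background rows (ticks, bottom). All Hox ticks lie between 2.21 and 5.34, left of the 95th percentile of the intron rows at 6.87 (solid line), and 7 lie right of the median of all control rows at 4.52 (dashed line).

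The 3 rows nearest to the upper mark were Hoxc9, Hoxb2 and Hoxa4, all below it. Hoxc9 (TC1500001119.mm.2), a thoracic patterning gene that also sorts motor neuron types in the spinal cord, read 5.18, 4.90, 5.25 and 5.23 on control arrays 1 to 4 and 5.76, 5.13, 5.93 and 5.33 on IDE-KD arrays 1 to 4. Its IDE-KD arrays 1 and 3 were the highest of the 8, and array 2 lay within the control range. Hoxb2 (TC1100001500.mm.2), a hindbrain segment gene, read 5.37, 4.74, 5.42 and 5.17 in control and 5.33, 5.07, 5.49 and 4.93 in IDE-KD cells. The lowest Hoxb2 reading was control array 2, and the groups overlapped throughout. Hoxa4 (TC0600002278.mm.2), a gene of the neck vertebrae, read 4.97, 4.83, 4.99 and 4.55 in control and 5.27, 4.74, 4.98 and 4.50 in IDE-KD cells. Array 4 was the lowest of each group for Hoxa4, and the groups overlapped.

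**Figure D2:**
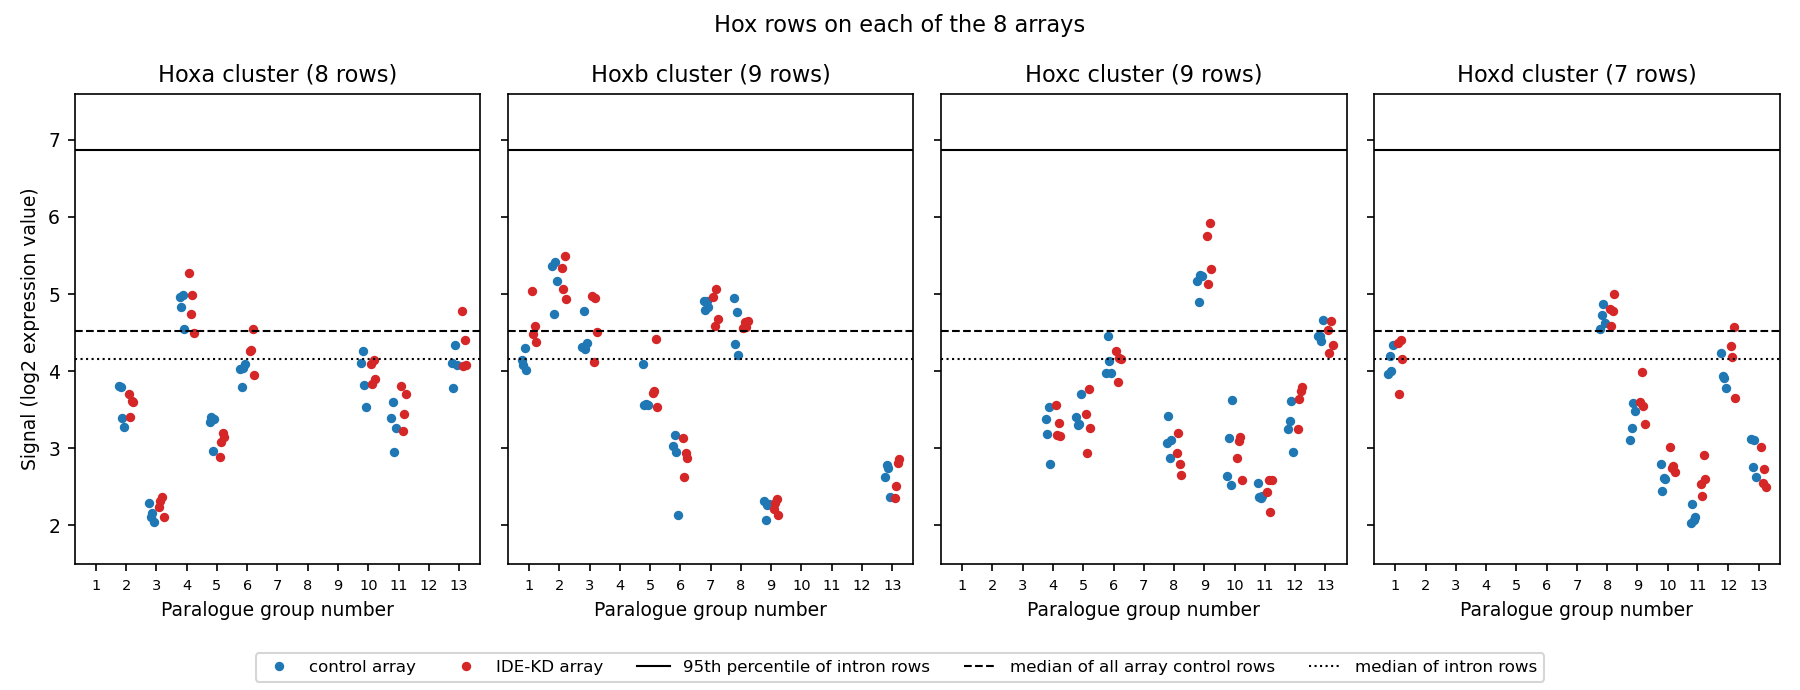
Signal (log2 expression value) of each Hox row on each array, by cluster and paralogue group number, with control arrays in blue and IDE-KD arrays in red. The lines mark the 95th percentile of intron rows (6.87), the median of all control rows (4.52) and the median of intron rows (4.16). No point reaches the upper line, and Hoxb2 and Hoxc9 sit highest.

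The clusters differed in how many members passed the median control row, and the counts changed with the mark. In the Hoxb cluster 4 of 9 rows lay above the median control row, against 1 of 8 in Hoxa, 1 of 9 in Hoxc and 1 of 7 in Hoxd. By position, 2 of 6 anterior rows (paralogue groups 1 to 3), 4 of 12 central rows (4 to 8) and 1 of 15 posterior rows (9 to 13) were above it. The 1 posterior row was Hoxc9. Above the median intron row were 2 of 8 Hoxa, 5 of 9 Hoxb, 2 of 9 Hoxc and 1 of 7 Hoxd rows. By position, 3 of 6 anterior, 4 of 12 central and 3 of 15 posterior rows were above the median intron row. Above the array's own median control row on all 8 arrays were 1 anterior row (Hoxb2), 0 central rows and 1 posterior row (Hoxc9). These counts are descriptions of few rows, with no test.

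In the Hoxb cluster the rows above the median control row were, beside Hoxb2, Hoxb3, which acts with it in the hindbrain, at 4.53 over the 8 arrays, Hoxb7 at 4.84 and Hoxb8, a gene of the spinal cord and of blood progenitors, at 4.59. Hoxb1, which gives a hindbrain segment its identity, followed at 4.38. The remaining Hoxb rows were dimmer, with Hoxb5 at 3.77, Hoxb6 at 2.86, Hoxb13, a gene of the tail and the prostate, at 2.63 and Hoxb9 at 2.24. The rows above the median control row thus came from both the anterior and the central groups of this cluster.

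In the Hoxa cluster Hoxa4, at 4.85, was the only row above the median control row. Hoxa13, a gene of the hand and foot plate and of the genital tract, read 4.21, and Hoxa6 read 4.12. Hoxa10, a gene of the uterus, read 3.96, Hoxa2, which sets the identity of the second pharyngeal arch, 3.57, and Hoxa11, a limb and uterus gene, 3.42. Hoxa5, a gene of the lung and the neck, read 3.17. The dimmest of all 33 rows was Hoxa3, a gene needed for the thymus and parathyroid, at 2.21, and 8.50% of intron rows read lower than it.

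The Hoxc cluster held the brightest row beside some of the dimmest. Next to Hoxc9 came Hoxc13, a hair and nail gene, at 4.47, just under the median control row, and Hoxc6 at 4.12. Then followed Hoxc12 at 3.45, Hoxc5 at 3.39, Hoxc4 at 3.27, Hoxc8 at 3.00, Hoxc10, a gene of lumbar level, at 2.95 and Hoxc11 at 2.43. Hoxc8 and Hoxc10, the direct neighbours of Hoxc9 in the cluster, were below the median control row on all 8 arrays.

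In the Hoxd cluster Hoxd8, at 4.74, was above the median control row, and Hoxd1, a gene of pain-sensing neurons, read 4.14. Of the posterior Hoxd genes, which pattern limbs and genitals, Hoxd12 read 4.08 and Hoxd9 3.49. Hoxd13, the digit gene, read 2.80, Hoxd10 2.71 and Hoxd11 2.36. Only 11.6% of intron rows read lower than Hoxd11.

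Genes around the clusters had a wider range. Among the 10 nearest measured genes on each side of each cluster, 30 of 80 stood above the 95th percentile of intron rows and 49 of 80 above the median control row, against 0 and 7 of 33 Hox rows. Of all tested rows, 26.1% stood above the 95th percentile and 57.0% above the median control row. The median signal of the flanking genes was 5.51, and 5.76 beside Hoxa, 4.84 beside Hoxb, 5.84 beside Hoxc and 5.85 beside Hoxd. By name, of 26 measured genes on a list of neighbours, 14 were above the 95th percentile. The brightest were Atp5g3, an ATP synthase subunit gene beside Hoxd, at 9.77 and Nfe2l1, a stress-response transcription factor gene beside Hoxb, at 9.74. The homeobox genes at the ends of Hoxa and Hoxd, Evx1 at 4.44 and Evx2 at 4.02, were below the median control row like most Hox rows. Inside the clusters 3 other genes were measured, Gm53 in Hoxb at 4.81, above the median control row, Hoxd3os1 in Hoxd at 2.56 and Hoxa11os in Hoxa. Hoxa11os, an antisense transcript gene of Hoxa11, read 3.38 ± 0.04 on control and 3.39 ± 0.28 on IDE-KD arrays (SD, n = 4). On a list of 18 noncoding genes of the clusters, which does not hold Hoxd3os1 or Gm53, it was the 1 with a named row, and the 17 others were not analysed here.

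**Figure D3:**
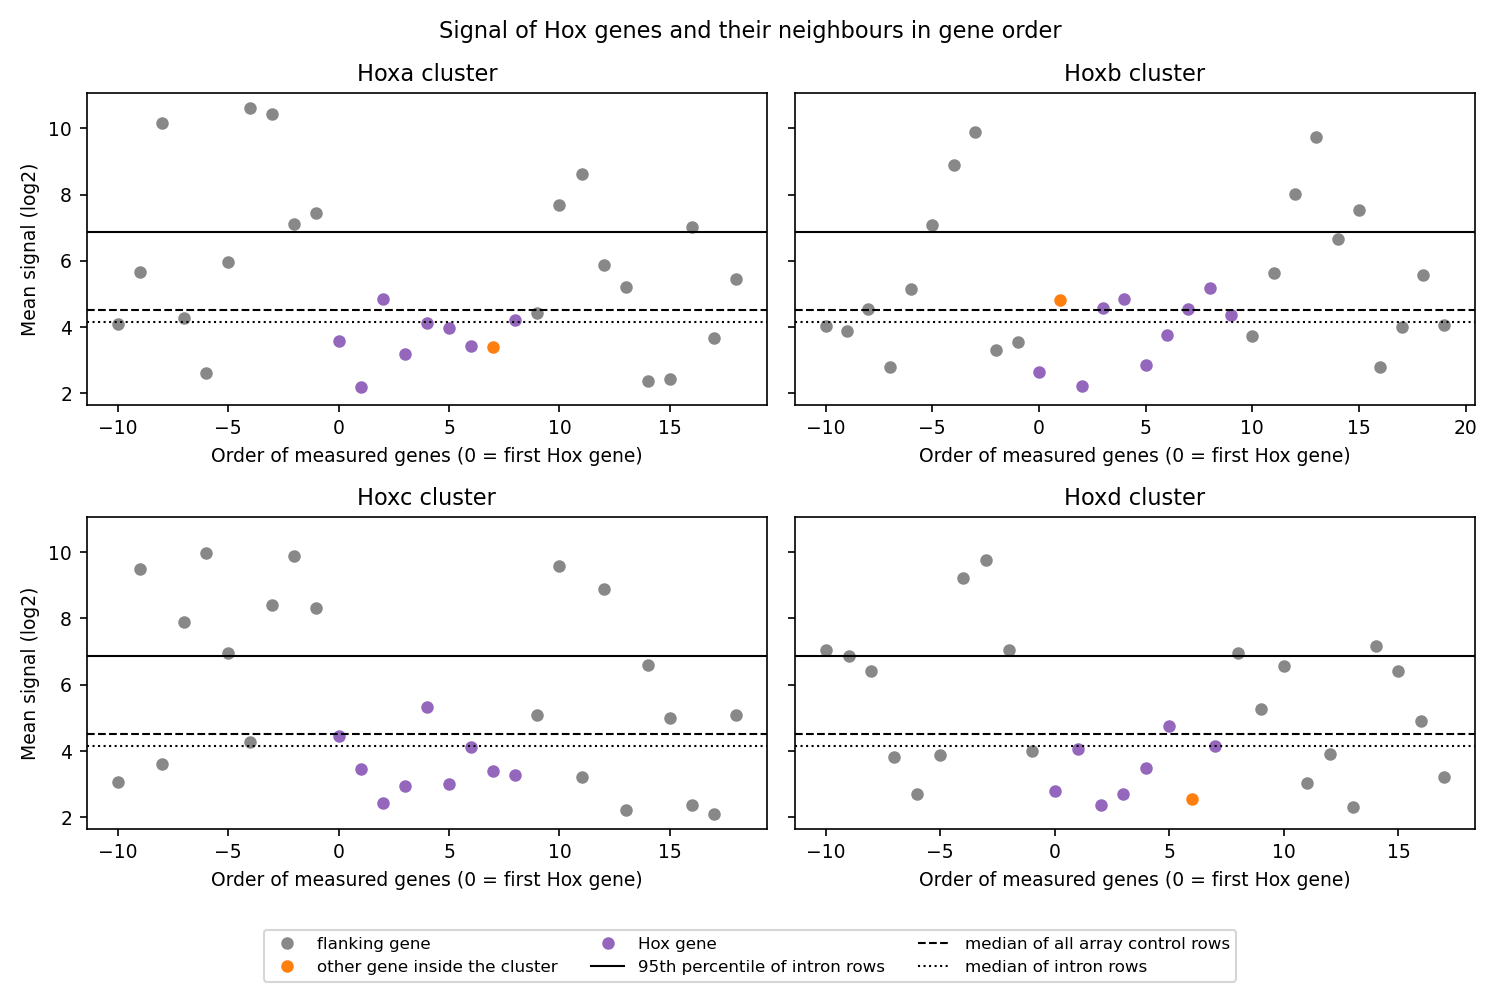
Mean signal over the 8 arrays (log2 expression value) of each measured gene in the order of the RefSeq gene table, with Hox genes in purple, other genes inside a cluster in orange and the 10 nearest genes on each side in grey. The Hox genes lie in a low stretch in all 4 panels, while 30 of 80 flanking genes lie above the solid line at 6.87.

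All measured chromatin regulators and partners of Hox genes on 3 lists were above the median control row, against 57.0% of all tested rows. The 95th percentile of intron rows was passed by 26.1% of all tested rows. All 12 measured trithorax and MLL genes stood above the median control row, and 9 of them above the 95th percentile of intron rows, with Psip1, the chromatin tether of MLL complexes, at 9.50 and Ash2l, a shared core subunit, at 8.10. All 28 measured Polycomb genes were above the median control row, and 16 above the 95th percentile, with Rbbp7, a histone-binding subunit, at 10.03 and Aebp2, a cofactor of the methyltransferase complex, at 9.10. Of 10 measured partners, 10 were above the median control row and 2 above the 95th percentile. These were Hmgb1, a DNA-bending protein gene, at 10.58 and Meis1 at 7.34.

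Fewer genes of the retinoic acid and ParaHox lists passed these marks. Of all tested rows, 57.0% passed the median control row and 26.1% the 95th percentile. Of 17 retinoic acid pathway genes, which make, bind, sense or degrade the signal, 8 were above the median control row and 3 above the 95th percentile: Dhrs3, a retinal reductase gene, at 7.51, the receptor gene Rarg at 7.50 and Stra6, which encodes a retinol uptake receptor, at 7.03. The synthesis gene Aldh1a2 read 2.41, the lowest of the list. Of the 6 ParaHox genes, 0 were above the 95th percentile, and 1 was above the median control row, Cdx1, an intestinal homeobox gene, at 4.97. Pdx1, the master gene of pancreas and beta cells, read 4.28.

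Between IDE-KD and control cells, 0 of 33 Hox rows were called. In limma, with Benjamini-Hochberg adjustment over 22142 rows, 0 rows (0%) passed an adjusted p of 0.05, and every Hox row had an adjusted p of 1.00. Ide itself, with groups apart and a log2 difference of -0.62, was not called either. A count of 0 calls therefore does not show that Hox genes were unchanged. Over the alternatives the smallest adjusted p of a Hox row was between 0.601 and 1.00. At an unadjusted p under 0.05 there were 3 Hox rows (9.09%), all higher in IDE-KD cells, against 4.59% of all tested rows in either direction, 2.69% higher and 1.91% lower. The groups were apart in 2 Hox rows, both with IDE-KD higher (6.06%), where 1.39% of all tested rows were apart in that direction and 1.41% in the other. Of the 9526 tested rows below the median control row, 604 had an unadjusted limma p under 0.05, 426 of them higher in IDE-KD cells. In 182 of those 9526 rows the groups were apart with IDE-KD higher, and in 86 with IDE-KD lower. The Hox counts rest on 3 genes.

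Hoxd11 (TC0200005473.mm.2), a gene of the forearm and the posterior axis, had the smallest p. It read 2.04, 2.28, 2.07 and 2.10 on control arrays 1 to 4 and 2.54, 2.39, 2.91 and 2.60 on IDE-KD arrays 1 to 4. All IDE-KD arrays were above all control arrays, and every reading was below the median control row. The log2 difference was 0.49 (SE 0.13, 95% confidence interval 0.20 to 0.78). Its unadjusted limma p was 0.00325, rank 67 of 22142, at an adjusted p of 1.00. The exact two-sided permutation p was 0.0286, the smallest that 4 against 4 arrays allow, and any row with groups apart has it.

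Hoxb1 (TC1100001502.mm.2) read 4.15, 4.09, 4.31 and 4.02 on control and 5.05, 4.49, 4.58 and 4.38 on IDE-KD arrays. The groups again did not overlap, and IDE-KD array 1 was well above the other 3. The difference was 0.48 (SE 0.15, 95% confidence interval 0.15 to 0.81), with an unadjusted limma p of 0.00746 (rank 139), an adjusted p of 1.00 and an exact permutation p of 0.0286. The control mean of 4.14 lay below the median control row and the IDE-KD mean of 4.62 just above it.

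Hoxc9, given above by array, differed by 0.40 (SE 0.17, 95% confidence interval 0.02 to 0.78), from 5.14 ± 0.16 to 5.54 ± 0.37 (SD, n = 4). The groups overlapped, the unadjusted limma p was 0.0397 and the exact permutation p 0.143. The other 2 of the 3 brightest rows showed next to no difference, with Hoxb2 at 0.03 (SE 0.17) and Hoxa4 at 0.04 (SE 0.17). Both turned negative with array weights (-0.04 for Hoxb2 and -0.0068 for Hoxa4).

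Further Hox rows with the smaller p values had intervals that included 0. On the higher side these were Hoxc12 at 0.31 (SE 0.16), Hoxa6 at 0.27 (SE 0.14) and Hoxd9 at 0.25 (SE 0.16). On the lower side, Hoxc8, a gene of the brachial spinal cord, differed by -0.22 (SE 0.15), Hoxd13 by -0.20 (SE 0.16) and Hoxa5 by -0.19 (SE 0.13). Single arrays moved each of these by over 1.5 times. Hoxc12 was 0.20 without control replicate 4, Hoxa6 0.17 without IDE-KD replicate 3, and Hoxd9 0.125 without IDE-KD replicate 2 and 0.165 without control replicate 1. Hoxc8 was -0.12 without control replicate 2 and -0.14 without IDE-KD replicate 4, and Hoxa5 -0.30 without control replicate 3. Hoxd13 was -0.134 without control replicate 1, -0.135 without control replicate 3 and -0.31 without IDE-KD replicate 1. Over all 33 rows the differences ran from -0.22 to 0.49, and the standard errors from 0.12 to 0.22. The 95% confidence interval excluded a 2-fold change in either direction in 33 of 33 rows and a 1.5-fold change in 24 of 33 (72.7%). The same held for 22074 of all 22142 tested rows at 2-fold, and at 1.5-fold for 83.6% of all rows and 75.7% of rows below the median control row. Array signal near background can understate RNA ratios, so these bounds hold for the signal and not for the RNA. Within the groups, the median SD of a Hox row was 0.21 in control and 0.23 in IDE-KD arrays.

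**Figure D4:**
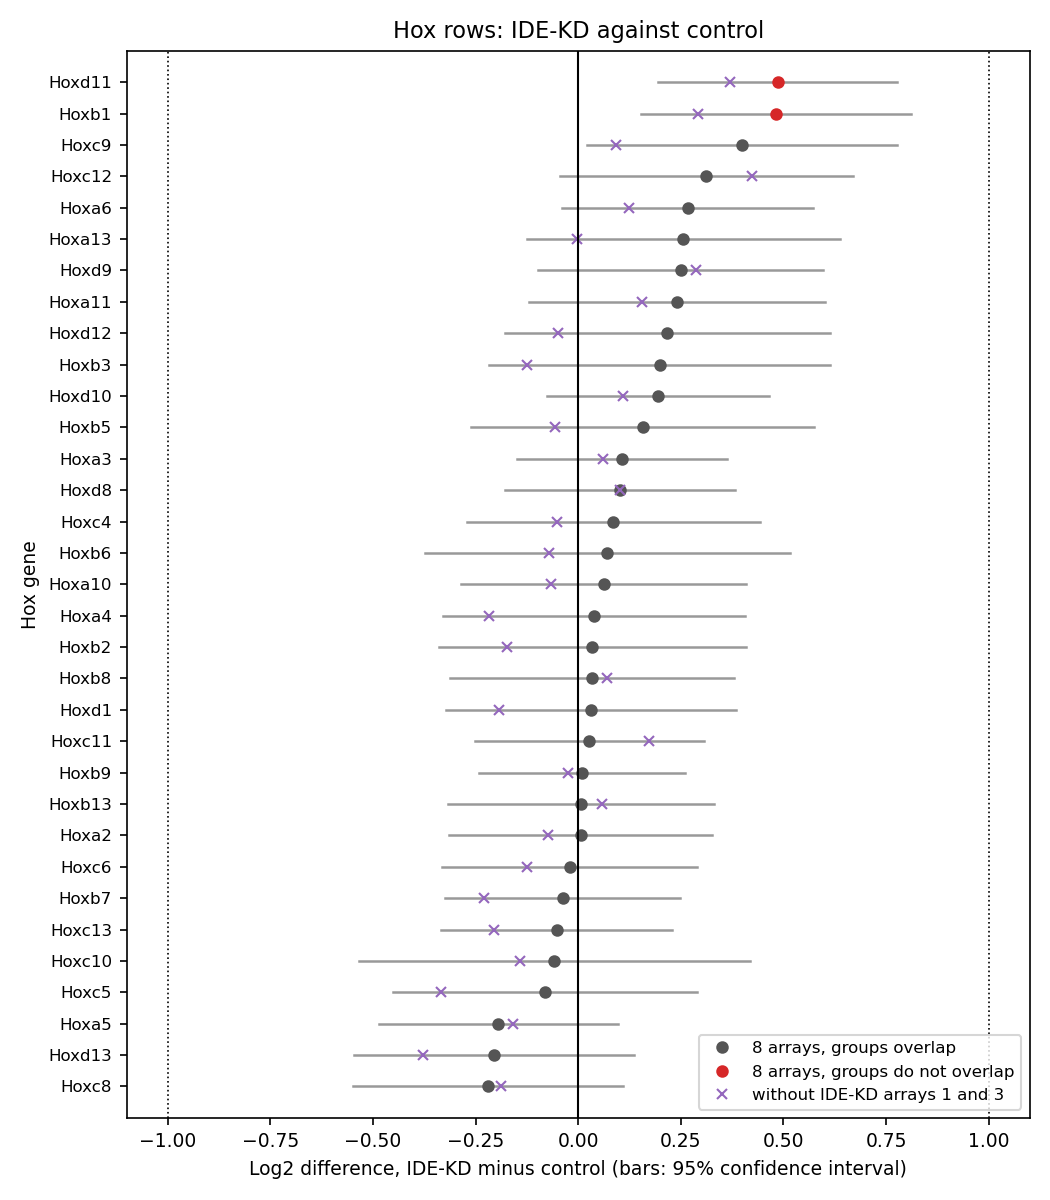
Log2 difference (IDE-KD minus control) of each Hox row with its 95% confidence interval from limma over 8 arrays (circles and bars, red where the groups do not overlap), and the difference without IDE-KD arrays 1 and 3 (crosses). All bars lie inside the dotted lines at a 2-fold change, and without those arrays 13 rows in place of 25 lie right of 0. Those arrays had the highest Hox means and were left out after the data were seen.

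More Hox rows were higher than lower in IDE-KD cells, 25 against 8, with a median difference of 0.06. Of all tested rows 52.1% were higher, with a median of 0.0074. Quantile normalization or cyclic loess of the deposited values left 19 of 33 Hox rows higher. By cluster, 7 of 8 Hoxa rows, 8 of 9 Hoxb rows, 4 of 9 Hoxc rows and 6 of 7 Hoxd rows were higher, and the cluster medians of the difference ran from -0.02 in Hoxc to 0.19 in Hoxd. The rows are not independent samples, and the count moves with 2 arrays. The mean over the 33 rows was 3.82 on IDE-KD array 1 and 3.86 on IDE-KD array 3, against 3.61 and 3.62 on IDE-KD arrays 2 and 4. The control arrays, at 3.68, 3.64, 3.64 and 3.55, lay around the lower pair, so the groups overlapped. The number of Hox rows above the array's own median control row was 10 and 11 on IDE-KD arrays 1 and 3, and 5 or 6 on each of the other 6 arrays. That mark was itself lowest on arrays 1 and 3, at 4.47 and 4.45 against 4.55 to 4.63 on the others, as were the means of the intron rows (4.20 and 4.20 against 4.25 to 4.38) and exon rows (6.95 and 6.92 against 7.05 to 7.13).

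The same arrays were the highest over dim rows of any kind. The mean over the 9526 tested rows below the median control row was 3.15 and 3.18 on IDE-KD arrays 1 and 3 and between 3.02 and 3.10 on the other 6 arrays. Their SD over all tested rows was the smallest of the 8, 2.16 and 2.13 against 2.20 to 2.25, which is a narrower spread of bright and dim signals. Of those dim rows, 61.6% were higher in IDE-KD cells, with a median difference of 0.05. Without IDE-KD arrays 1 and 3, 13 Hox rows were higher and 20 lower (median difference -0.05), and 47.8% of the dim rows were higher. Leaving these arrays out was chosen after the data were seen. They had the highest Hox means, so a lower mean Hox difference without them was fixed by that choice. In the fit without them Hoxd11 differed by 0.37 (SE 0.14), Hoxb1 by 0.29 (SE 0.14) and Hoxc9 by 0.09 (SE 0.15). There, 0 of 33 rows had an adjusted p under 0.05. An unadjusted limma p under 0.05 was found in 3 Hox rows and in 1749 of all 22142 tested rows. Markers of other cell types, also mostly dim, were higher too: 7 of 8 for other islet cells (median difference 0.14), 6 of 7 for fibroblast and stellate cells (0.11) and 6 of 7 for exocrine, immune and endothelial cells (0.07), with 0 called. The mean over the fibroblast and stellate markers was 3.78 to 4.14 on control and 3.98 to 4.23 on IDE-KD arrays, so the groups overlapped, and that over other islet markers was 4.35 to 4.69 and 4.48 to 4.74. Without IDE-KD arrays 1 and 3 the medians of these 3 lists were -0.0045, -0.07 and 0.02. The part of the narrower signal spread, and of these cell types, in the Hox values was not tested.

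**Figure D5:**
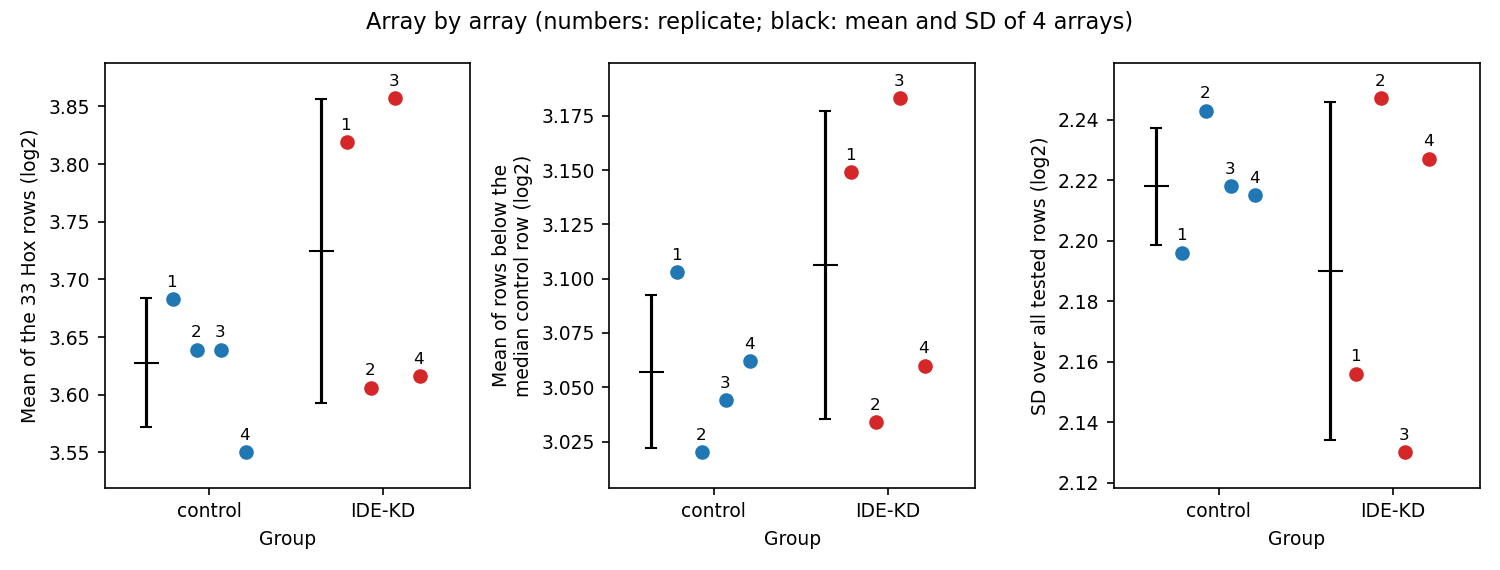
Array by array, the mean of the 33 Hox rows, the mean of all tested rows below the median control row, and the SD over all tested rows (log2 units), with the mean and SD of each group in black. IDE-KD arrays 1 and 3 are the highest in the first 2 panels (3.82 and 3.86, 3.15 and 3.18) and the lowest in the third (2.16 and 2.13).

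Of the regulators, partners and neighbours on these lists, 0 were called by limma. At an unadjusted p under 0.05 there were 4 Polycomb genes, 2 retinoic acid genes and 0 on the 4 other lists, against 4.59% of all tested rows. Polycomb genes had 22 lower and 6 higher of 28, with a median difference of -0.11, where 10614 of all 22142 tested rows were lower. All 28 were above the median control row. The 22142 rows include the 9526 below that mark, of which 3657 were lower. The Polycomb genes with the smallest p were Cbx8, a subunit that reads the Polycomb histone mark, at -0.40 (SE 0.12) and Ezh1, a histone methyltransferase gene, at -0.30 (SE 0.13). Cbx8 read 6.34, 6.66, 6.47 and 6.46 on control and 5.93, 6.17, 6.21 and 6.04 on IDE-KD arrays. All its IDE-KD arrays were below all control arrays, which fixes the exact permutation p at 0.0286. In 3 Polycomb genes (10.7%) the groups were apart with IDE-KD lower, against 1.41% of all tested rows. Besides Cbx8 they were Ezh2, the main Polycomb methyltransferase gene, at -0.24 (SE 0.11) and Pcgf2 at -0.27 (SE 0.12), named after their values were seen. Ring1, a Polycomb ubiquitin ligase gene named likewise, differed the other way, by 0.33 (SE 0.14). The mean of the 28 genes was lowest on IDE-KD arrays 3 and 1, at 7.02 and 7.09, and lay between 7.14 and 7.25 on the others. Without those arrays, a choice made after the data were seen, 12 Polycomb genes were higher and 16 lower (median -0.0086). Cbx8 then differed by -0.38 and Ezh1 by -0.14. In that fit Ezh2 differed by -0.24, Pcgf2 by -0.24 and Ring1 by 0.34.

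Trithorax and MLL genes also had more lower than higher, 10 against 2 of 12, with a median difference of only -0.01. The smallest p values were those of Hcfc1 at -0.21 (SE 0.12; -0.14 without control replicate 4) and the methyltransferase gene Kmt2d at -0.15 (SE 0.12; -0.09 without IDE-KD replicate 3). Partners had 4 higher and 6 lower of 10 (median -0.03), with Pbx4 at 0.13 (SE 0.14) and Meis1 at -0.11 (SE 0.13). With 1 array left out, Pbx4 lay between 0.07 (without IDE-KD replicate 4) and 0.23 (without IDE-KD replicate 1), and Meis1 between -0.19 and -0.04 (without IDE-KD replicates 4 and 3). Retinoic acid genes had 9 higher and 8 lower of 17 (median 0.03), with Stra6 at -0.37 (SE 0.14) and the receptor gene Rara at -0.33 (SE 0.15), which was -0.20 without IDE-KD replicate 3. ParaHox genes had 4 higher and 2 lower (median 0.03), with Pdx1 at 0.18 (SE 0.14) and Cdx4 at 0.08 (SE 0.12). Without IDE-KD replicate 3 these were 0.08 and 0.02. Neighbours of the clusters had 15 higher and 11 lower of 26 (median 0.02), with Itga5, an integrin gene, at -0.40 (SE 0.21) and the DNA repair gene Smug1 at 0.30 (SE 0.17). Itga5 was -0.245 without IDE-KD replicate 2 and -0.27 without control replicate 2, and Smug1 was 0.20 without control replicate 1. In none of these 5 lists were the groups of any gene apart. Without IDE-KD arrays 1 and 3, left out after the data were seen, the median was 0.02 for partners and -0.07 for retinoic acid genes. Both had turned in sign. For the trithorax, ParaHox and neighbour lists it was -0.02, 0.00064 and 0.03.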

How the data were processed

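Expression was measured on 8 Clariom S arrays, 4 control and 4 IDE-KD, in total RNA of alphaTC1.9 cells. The authors deposited log2 expression values, 1 column per array, and RMA, oligo and limma are listed, with no version, in the submitters' processing notes. Tested rows had medians of 5.10 to 5.17 and SDs of 2.13 to 2.25 per array, so array distributions were close but not identical. The sources used here do not give the build behind the probe sets, so RefSeq coordinates are printed for promoter windows only.

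Values were used as deposited. Rows named as transcript clusters (22142) were tested; 6923 control rows, of which 5222 are taken as intron and 1324 as exon controls from their names (neg and pos), set the signal marks, and 64 unplaced rows were left out. Symbols came from the platform table: 19527 tested rows had 1 symbol, 0 several and 2615 none. Entrez identifiers of 33 of 33 Hox rows matched RefSeq. A listed gene with several rows took its brightest.

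IDE-KD minus control was fitted with limma 3.58.1 (lmFit, eBayes) in R 4.3.3 without covariates, adjusted by Benjamini-Hochberg over all tested rows, at a threshold of 0.05. The fit was tested on simulated data. Single rows were also compared by exact two-sided permutation. The number of arrays limits the precision. Alternatives were other models, normalizations, filters and left-out arrays. Members and lists were chosen with earlier results of these data known. Every Hox row could be named; array values are given for the 3 brightest and for rows with an unadjusted p under 0.05 or groups apart, and per list the 2 brightest and the 2 smallest p.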

Additional observations from a re-analysis of the deposited data

Results flagged for a closer look

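Of 66 groups of 4 arrays (33 Hox rows, control and IDE-KD), 4 held 1 array that stood far from the other 3 by Dixon's test, all among controls. Chance flags about 1 in 20 groups, or 3.3 of 66. For Hoxa5, control array 3 read 2.96 against 3.34 to 3.40 on the others. For Hoxb3, control array 2 read 4.78 against 4.28 to 4.36. For Hoxb5, control array 1 read 4.09 against 3.56 to 3.57. For Hoxc11, control array 1 read 2.55 against 2.36 to 2.39.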

How the results depend on the processing

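No Hox row, no row of any kind and no listed gene was called by limma in any alternative, and the smallest adjusted p over all rows was 0.114, among rows above the 95th percentile of intron rows, where 0 Hox rows remained to test. The count of Hox rows above the 95th percentile of intron rows stayed 0 at the 90th and 99th percentiles, against the 95th percentile of background rows, after centring and with each array left out. It was 7 at the median control row, and, by marks added after seeing the data, 10 at the median intron row and 2 where the array's own median control row had to be passed on all 8 arrays. Arrays of the same number had deviations correlated at 0.088 to 0.129. Those of different numbers were mostly negative. They ran from -0.225 (control 1 with IDE-KD 4) to 0.209 (control 2 with IDE-KD 4), with 0.169 for control 1 with IDE-KD 3. The labels do not call the numbers pairs, and the main fit took none. Whether the numbers mark pairs cannot be told from these values. The replicate block gave 0 Hox calls and 0 calls in all, with 1253 rows at an unadjusted p under 0.05 in place of 1017. Leaving out 1 array gave 19 (without IDE-KD replicate 3) to 27 Hox rows higher, a median of 0.032 to 0.119, and differences of 0.385 to 0.559 for Hoxd11, 0.342 to 0.565 for Hoxb1, and 0.268 (without IDE-KD replicate 3) to 0.534 for Hoxc9. Hoxb2 ranged from -0.11 to 0.125 and Hoxa4 from -0.094 to 0.164. Leaving out both IDE-KD arrays 1 and 3, added after seeing the data, gave 13 Hox rows higher, a median of -0.053, -0.172 for Hoxb2, -0.217 for Hoxa4 and 0.012 for Meis1. With array weights Hoxb2 was -0.040 and Hoxa4 -0.0068. The cause of these changes was not tested. Signal near background limits every Hox value.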
